A study of Mus musculus with 40 samples.

Results

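The genomic tiles described here are those that lie closest together in a reduced representation bisulfite sequencing (RRBS) table of mouse B cells. The table reports the methylation level of 100-bp tiles. For each autosomal tile, the other tiles of the table whose start lay within 500 bp were counted, up to a maximum of 10. A tile was a member if its count was 8 or more and if at least 2 of the 3 libraries in each of the 8 groups gave it a value. Members numbered 51176 of the 971845 tiles in the table. They were 51176 of the 83663 autosomal tiles with a count of 8 or more, and of the 200813 autosomal tiles that met the same requirement on values at any density. The other 149637 of those tested tiles, with counts of 0 to 7, served for comparison. The rule used positions and the presence of values, and no methylation level.

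In the mammalian genome most CpG sites are methylated, and CpG islands are the short CpG-rich stretches that escape this, often at gene promoters. RRBS cuts DNA with an enzyme whose site contains CpG, so closely packed tiles mark places where such sites are frequent, as they are in islands. The enzymes TET2 and TET3 oxidise 5-methylcytosine, which opens a route by which DNA loses its methyl marks. Bisulfite sequencing reads 5-methylcytosine and its first oxidation product alike, so a level here is the sum of the pair.

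The 24 RRBS libraries came from genomic DNA of pro-B cells, an early bone marrow stage, and of follicular B cells, the main mature B cell of spleen and lymph node. Each stage had 3 wild-type (WT) C57/bl libraries, 3 with knockout of Tet2 (Tet2KO), 3 with knockout of Tet3 (Tet3KO) and 3 with knockout of both (DKO). The labels describe the knockouts as inducible under the MB1 promoter, a promoter active in the B lineage, and give no separate control that carries the driver without the deletion. At both stages the WT donors were a male of 8 weeks, a male of 6 weeks and a female of 6 weeks. The Tet2KO donors were females of 8, 6 and 6 weeks. The Tet3KO donors were 2 males and a female of 7 weeks, and the DKO donors were 2 males of 7 weeks and a female of 6 weeks. Sex and age therefore differed between genotypes. The labels do not say whether pro-B and follicular libraries came from the same mice, and cell identity could not be checked against expression markers in a methylation table. The 16 RNA samples of the series were not analysed here.

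One library stood apart. Library 8, a pro-B Tet3KO library, held a value for 24600 tiles of the table and for 8216 members (16.1%), while the other 23 libraries held 273728 to 631415 tiles and 48315 to 51160 members. Because libraries lacked different tiles, mean levels were compared over the 39634 members with a value in all 23 libraries other than library 8, a set chosen after the coverage was seen, and pro-B Tet3KO means then rest on 2 libraries. The number of reads behind each value is not given in the table, so no counting interval can be attached to any level.

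Most members were unmethylated in every group, as CpG islands usually are. Averaged over the 23 libraries, 3343 members (6.53%) were at 0 throughout, 27924 (54.6%) lay above 0 and up to 1%, and 10074 (19.7%) lay between 1 and 5%. Another 3933 members (7.69%) had a mean of 5 to 20%, 2025 (3.96%) a mean of 20 to 80%, and 3877 (7.58%) a mean of 80% or more. Among the less densely placed tested tiles the order was turned around, with 41.6% at 80% or more and 21.6% above 0 and up to 1%. In all 8 groups at once, 35518 members (69.4%) stayed under 5%, against 28.0% of the other tested tiles. Members at 80% or more in all 8 groups numbered 3199 (6.25%), against 31.1% of the others. Dense tiling thus marked mainly unmethylated DNA, but a minority of members was fully methylated at both stages and in all genotypes, which is not how a CpG island is usually described. The table holds no CpG counts, so the island label itself could not be checked further, and the members are called densely tiled tiles below.

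The level fell steadily as density rose from 1 neighbour upward. Over the 23 libraries the mean was 69.4% at 1 neighbour, 43.7% at 4, 27.6% at 5 and 15.1% at 7, the last count outside the members. At 8 neighbours, the first count inside, it was 11.1%, and it went on to 7.97% at 9 and 6.62% at 10. Between 7 and 8 neighbours there was no step. The share of tiles under 5% grew alongside, from 10.5% at 1 neighbour to 73.0% at 7, 78.2% at 8 and 86.6% at 10. In all 8 groups the curves ran almost on top of each other. The difference between follicular DKO and WT shrank with density in absolute terms, from 1.93 points at 1 neighbour to 0.669 at 8 and 0.350 at 10, while the ratio of the means stayed between 1.03 and 1.06 at each count from 1 to 10. Dense tiles were also the ones most often measured: 9.89% of autosomal tiles with 1 neighbour had values in enough libraries to be tested, against 53.9% at 8 and 70.4% at 10.

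**Figure D1:**
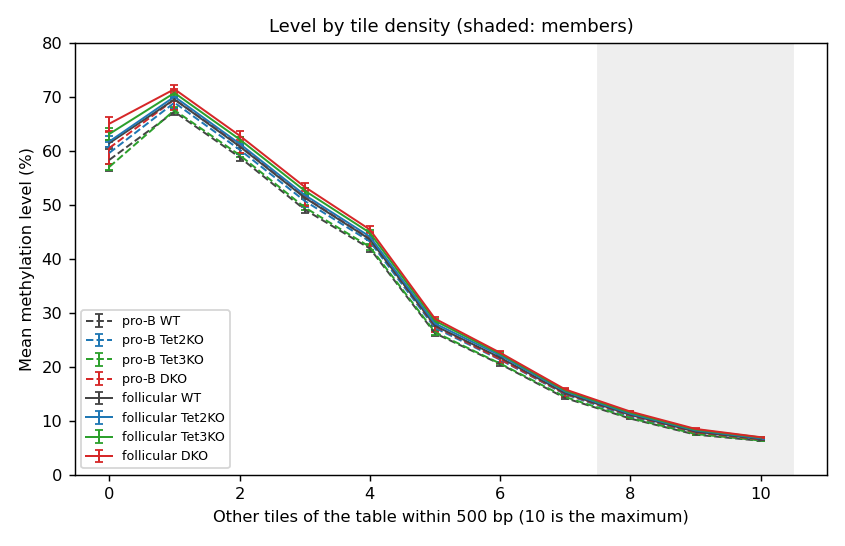
Mean methylation level (y axis, percent) of tested tiles with a value in 23 libraries, by the number of other tiles within 500 bp (x axis), for 8 groups; bars are the SD over libraries (2 for pro-B Tet3KO, otherwise 3). Levels fall from 69.4% at 1 neighbour to 6.62% at 10 when averaged over libraries, and the shaded members form the low end of the curve.

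Joined where starts lay within 500 bp, the members formed 10169 stretches. The median stretch held 4 tiles over 500 bp, 1458 were single tiles, 1680 spanned at least 1000 bp and 210 at least 2000 bp. Their mean level was under 5% in 7189 stretches (70.7%), 20 to 80% in 592 (5.82%) and 80% or more in 1479 (14.5%). Long stretches were unmethylated more often: of the 4606 with at least 5 tiles, 3813 (82.8%) had a mean under 5% and 185 (4.02%) a mean of 80% or more. Methylated stretches were short, with a median of 2 tiles against 5 for those under 5%. In 45 of the 4606, the same stretch held both a tile under 10% and a tile over 80%. All libraries with a value put 5421 stretches under 5%, 848 at 80% or more and only 7 between 35 and 65%.

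The longest stretch was a methylated one. It covered 7100 bp of chromosome 10, from 27538301 to 27545400 (mm9, the build of all coordinates here), with 71 tiles of which the lowest averaged 74.1% and the highest 95.3%. Its group means ran from 90.3% ± 0.347 (SD, n = 3) in pro-B WT to 92.4% ± 2.32 (n = 3) in pro-B Tet3KO, and the follicular groups lay between 90.8% and 91.1%. The pro-B Tet3KO mean takes in library 8, at 95.0%, while libraries 7 and 9 were both at 91.0%. The library means covered 89.9 to 95.0%, with library 8 the highest, and neither stage nor genotype set the groups apart. The next longest lay on chromosome 19 (45305801 to 45311300, 38 tiles) and was nearly unmethylated, from 1.90% ± 0.931 in pro-B WT to 3.56% ± 0.541 in follicular DKO.

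A stretch of 45 tiles on chromosome 17 (39980201 to 39985300) had a mean of 19.1%, with tiles from 6.11 to 74.6%. It stood at 12.7% ± 2.10 in pro-B WT, 21.9% ± 3.35 in pro-B Tet2KO and 9.64% ± 2.79 in pro-B Tet3KO. The last value takes in library 8, at 6.51%, while libraries 7 and 9 were at 11.9 and 10.5%. Among follicular groups, WT was at 19.8% ± 1.74, Tet2KO at 26.7% ± 0.584, Tet3KO at 23.4% ± 1.88 and DKO at 19.7% ± 0.229. Tet2KO was the highest group at both stages, and DKO lay within 1 SD of WT at both. The fifth longest stretch (chromosome 12, 5061901 to 5066500, 28 tiles) differed by stage in every genotype, from 89.4 to 91.0% in the 4 pro-B groups and from 83.0 to 84.0% in the 4 follicular groups. The longest stretch that every library put between 35 and 65% was 900 bp on chromosome 7 (114353001 to 114353900, 9 tiles), with group means from 51.2% in pro-B Tet3KO to 59.1% in follicular Tet3KO. These stretches were named for their length or level, and no test was made on them beyond the fit on runs given below.

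Loss of TET2 and TET3 was accompanied by a higher mean level of the members in follicular cells. Over the 39634 members, the follicular WT libraries averaged 8.55, 8.39 and 8.56%, and the DKO libraries 9.09, 8.91 and 9.01%. All 3 DKO libraries lay above all 3 WT libraries, by 0.505 points on average (SE 0.0744). Tet2KO averaged 8.71% ± 0.0392 and Tet3KO 8.87% ± 0.176, higher than WT by 0.207 (SE 0.0577) and 0.372 points (SE 0.114), and neither overlapped WT. The lowest Tet3KO library, at 8.69%, lay within the Tet2KO range, and the highest, at 9.04%, within the DKO range, so the order of the single knockouts and the order of Tet3KO and DKO did not exceed their spread.

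In pro-B cells the WT libraries averaged 7.90, 8.02 and 8.10% and the DKO libraries 8.73, 8.28 and 8.23%, a difference of 0.408 points (SE 0.168). Library 10 accounted for the high DKO value, and the groups did not overlap. Tet2KO averaged 8.30% ± 0.157, with all 3 libraries above WT, while the 2 Tet3KO libraries, at 8.03 and 8.14%, overlapped WT. Between stages, follicular WT exceeded pro-B WT by 0.494 points (SE 0.0796) and follicular DKO exceeded pro-B DKO by 0.591 (SE 0.166), again without overlap. WT and DKO shared a single sex and age stratum, the females of 6 weeks, which averaged 8.56% in WT and 9.01% in DKO in follicular cells and 8.10 and 8.23% in pro-B cells. Over all 51176 members, with their gaps, pro-B means were 9.36% ± 0.720 in WT and 9.64% ± 1.02 in DKO and overlapped, and leaving out pro-B WT library 1 or pro-B DKO library 10 turned that pro-B difference negative (-0.126 and -0.144 points). With sex and age strata as a term, the differences over all members were -0.214 points in follicular DKO, -0.00801 in follicular Tet2KO and -0.466 in pro-B DKO, so on the full set with its gaps these 3 directions were lost. Over the 39634 members the same term left every follicular difference positive but smaller, at 0.341 points for DKO, 0.108 for Tet2KO and 0.0835 for Tet3KO, and the pro-B DKO difference at 0.245. Tet3KO and WT shared no stratum, so the Tet3KO value was reached only through the DKO libraries.

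**Figure D2:**
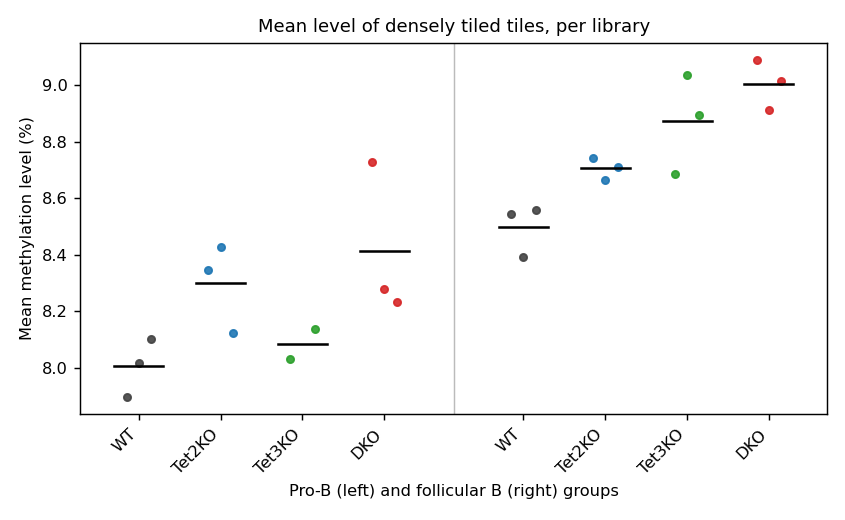
Mean methylation level (y axis, percent; the axis does not start at 0) of the 39634 members with a value in 23 libraries, one point per library, for the 4 genotypes of pro-B cells (left) and follicular B cells (right); lines are group means and library 8 is left out. Follicular DKO libraries sit between 8.91 and 9.09%, above the WT libraries at 8.39 to 8.56%.

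The other tested tiles moved in the same direction. Their follicular mean was 36.8% ± 0.145 in WT and 38.2% ± 0.493 in DKO, a ratio of 1.04 against 1.06 in the members. The 2 parts differ in their mix of levels. With tiles grouped by their mean over the 23 libraries, the ratio was higher in the other tiles below 80%. It was 1.64 against 1.54 in members above 0 and up to 1%, and 1.42 against 1.29 with 1 to 5%. It was 1.34 against 1.21 with 5 to 20%, and 1.11 against 1.08 with 20 to 80%. No test of members against other tiles was made. Subtracting each library's mean over all tested tiles reversed all 8 differences over the full member set, for example from 0.536 to -0.771 points in follicular DKO. The subtracted mean was mostly set by the other tested tiles, so this reversal does not by itself show a change in the members. In points, the members gained 0.505 and the other tested tiles 1.42 in follicular DKO.

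In follicular cells the genotype difference was present in members with very low, low and intermediate levels and was small at the fully methylated end, while in pro-B cells it was separated from the spread of the libraries only at the lower levels. Members were grouped by their mean over the 23 libraries, so these groups rest on the same values and are a description. Among the 23068 members above 0 and up to 1%, the follicular WT libraries averaged 0.265, 0.253 and 0.262% and the DKO libraries 0.404, 0.398 and 0.394%. The DKO mean of 0.399% ± 0.00501 was 1.54 times the WT mean of 0.260% ± 0.00647. Tet2KO stood at 0.280% and Tet3KO at 0.339%, so that WT, Tet2KO, Tet3KO and DKO formed a rising series in which no group overlapped the next. Pro-B cells gave the same series at a lower level, with WT at 0.145% ± 0.00825, Tet2KO at 0.188%, Tet3KO at 0.211% and DKO at 0.225% ± 0.00176, again without overlap. Follicular WT was 1.79 times pro-B WT.

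With 1 to 5% as the mean (7976 members), follicular WT stood at 2.30% ± 0.0885, Tet2KO at 2.54% ± 0.0677, Tet3KO at 2.73% ± 0.157 and DKO at 2.98% ± 0.132, a ratio of 1.29 between DKO and WT. With 5 to 20% (3046 members) they were 9.26% ± 0.327, 10.1% ± 0.317, 10.6% ± 0.744 and 11.2% ± 0.290, a ratio of 1.21. With 20 to 80% (1403 members) they were 44.2% ± 1.08, 45.9% ± 0.188, 47.5% ± 2.03 and 47.9% ± 1.24, so DKO exceeded WT by 3.74 points (SE 0.949). In each of these classes the 3 follicular DKO libraries lay above the 3 follicular WT libraries. With 80% or more (2409 members) WT was at 92.3% ± 0.302 and DKO at 92.4% ± 0.0394, and the groups overlapped. In follicular cells the gain in points was therefore largest at intermediate levels, and the gain as a ratio was largest near 0. In pro-B cells DKO was at 2.34% ± 0.0867 against 1.86% ± 0.0426 in WT with 1 to 5%, and at 9.47% ± 0.810 against 7.95% ± 0.255 with 5 to 20%, both without overlap. With 20 to 80%, pro-B DKO libraries lay at 39.8 to 48.3% and overlapped the WT libraries (39.1% ± 1.28). The pro-B single knockouts lay above WT with 1 to 5% and overlapped it with 5 to 20% and with 20 to 80%, where Tet3KO differed by -0.867 points (SE 0.801).

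A level near 0 also depends on how completely unmethylated cytosines were converted by bisulfite. The conversion rate of each library is not given in the sources used here, so its part in the differences under 1% was not tested. The least methylated of the other tested tiles were also higher in DKO, at 0.291% in follicular WT and 0.477% in follicular DKO. That ratio was 1.64, against 1.54 in the members. The share of members listed at exactly 0 was 32.6% in follicular WT and 32.7% in follicular DKO, and 57.2 and 48.8% in pro-B WT and DKO. A listed 0 becomes rarer as more reads cover a tile, and read numbers are not in the table.

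**Figure D3:**
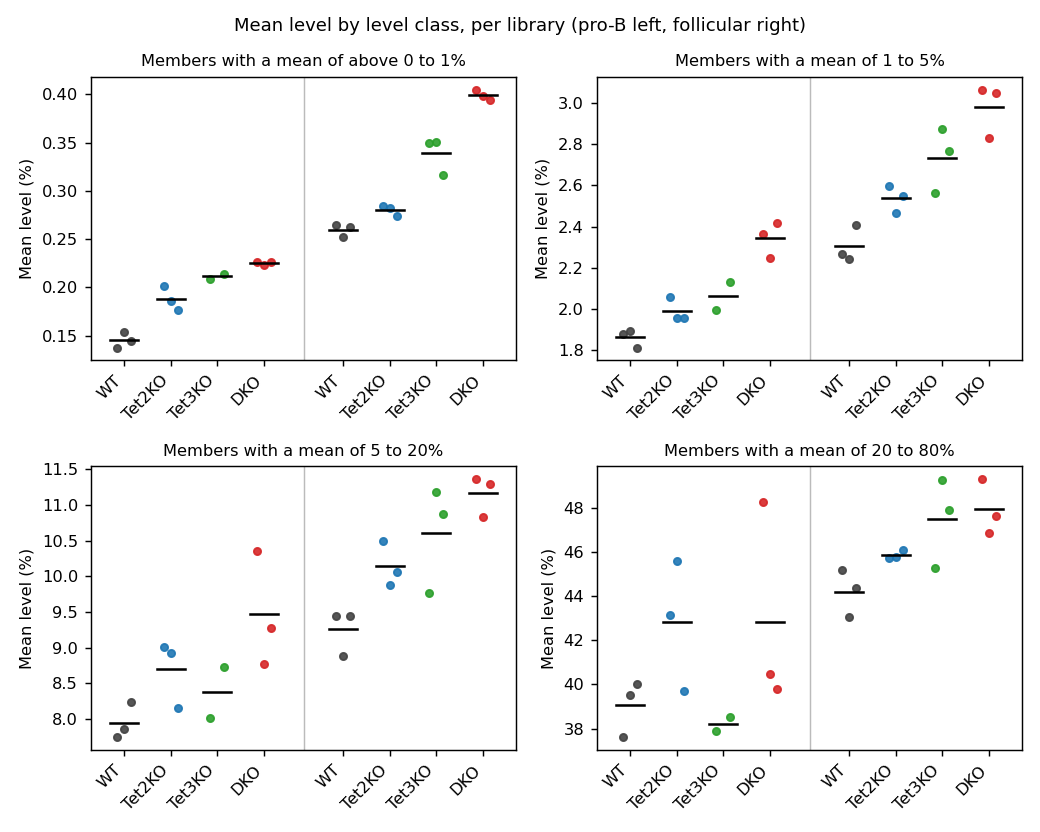
Mean methylation level (y axes, percent; different ranges, none starting at 0) of members grouped by their mean over 23 libraries, one point per library, pro-B groups left and follicular groups right in each panel; lines are group means and library 8 is left out. In the class above 0 and up to 1%, follicular levels rise from 0.260% in WT to 0.399% in DKO, and in pro-B cells the 20 to 80% class shows a wide DKO spread from 39.8 to 48.3%.

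In points, the knockout difference widened from the inside of a dense stretch outwards. For this, 6290 stretches with a mean under 10% and at least 3 tiles were aligned at their edges. These stretches were chosen as low on the same values, while the tiles outside were not, so the profile is a description. In follicular WT the level was 1.17% at 500 bp inside, 1.85% in the outermost member and 2.26% in the tiles within 100 bp outside. It then climbed to 4.91% at 300 bp, 11.1% at 500 bp and 14.6% at 1000 bp outside. Follicular DKO was above WT at each of these distances, by 0.323, 0.451, 0.557, 0.979, 1.67 and 2.21 points in the same order, and its 3 libraries never overlapped the WT libraries. As a ratio the difference ran from 1.2 to 1.3 inside, with 1.28 at 500 bp inside. It was still 1.25 at 100 bp and 1.2 at 300 bp outside, and 1.15 at 1000 bp outside. Tet3KO lay between WT and DKO, 0.255 points above WT at 500 bp inside and 1.51 at 1000 bp outside, with Tet2KO lower still at 0.162 and 0.614. In pro-B cells DKO exceeded WT by 0.164 points at 500 bp inside and 0.347 in the outermost member without overlap, but overlapped WT at 600 to 1000 bp outside. The number of tiles fell from 9551 at the outermost member to 274 at 1000 bp, so the outer points rest on far fewer places.

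**Figure D4:**
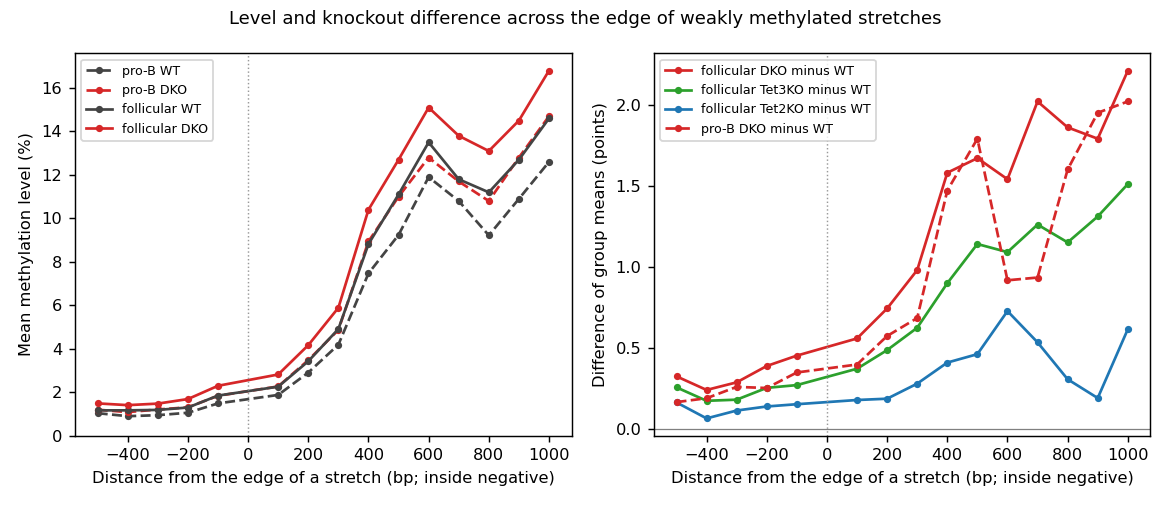
Left, mean methylation level (y axis, percent) by distance from the edge of 6290 weakly methylated stretches (x axis, bp; members inside are negative, other tested tiles outside positive) for WT and DKO at both stages; right, the difference of group means from WT (points). Follicular DKO lies above WT throughout, by 0.323 points at 500 bp inside and 2.21 at 1000 bp outside.

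Single tiles were then tested with limma over all 200813 tested tiles and all 24 libraries, and calling a tile required both a difference of at least 20 points and an adjusted p (Benjamini-Hochberg) under 0.05. Most members sit near 0, where a fall of 20 points is not possible, and the spread between libraries of a group was large at intermediate levels: the median SD was 12.9 points for members of 20 to 80%, 0.465 for those above 0 and up to 1%, and 4.01 for those of 80% or more. In follicular DKO 8 members were higher than WT (0.0156% of members), while 0.128% of all tested tiles were called higher. None was lower, against 0.000996% of all tested tiles. An unadjusted limma p under 0.05 was reached in that direction by 762 members (1.49%, against 1.28% of all tested tiles). In the other direction it was reached by 2247 (4.39%, against 4.54%). All 3 DKO libraries lay above all 3 WT libraries at 4.48% of the 48816 members measured in each, with a background of 6.99%, and below at 1.80%, with a background of 2.44%. The called share of members was below that of all tested tiles in this comparison. Of the 42 tiles or tile pairs named from these calls in all comparisons, none was called when only the groups compared were fitted, and 32 lost their call with sex and age strata in the fit.

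The largest of the 8 was a lone member on chromosome 7 (118067301 to 118067400), with no other member near it. Follicular WT libraries were at 31.8, 6.82 and 0% and DKO libraries at 77.3, 84.2 and 95.8%, a difference of 72.9 points (SE 12.3, limma adjusted p = 0.0177). Tet2KO libraries, at 14.3, 15 and 0%, and Tet3KO libraries, at 12.2, 34.4 and 17.9%, stayed in the low range. Only the double knockout was high, and the same held in pro-B cells, where WT was at 0, 27.3 and 0% and the 2 DKO libraries with a value were at 84.2 and 100%. That pro-B difference was 83.0 points (SE 13.8, limma adjusted p = 0.0168). Both calls were lost on the logit scale and under 2 further alternatives, and the follicular call also without WT library 14 or 15 (adjusted p = 0.071 and 0.0769), while the pro-B call was lost without DKO library 12 (0.079).

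On chromosome 14 (54853701 to 54853800) the order of genotypes was graded. Follicular WT libraries were at 5.09, 10.3 and 4.46%, Tet2KO at 37.6, 27.1 and 34.8%, Tet3KO at 41.3, 35.9 and 63.3% and DKO at 67.5, 62.6 and 66.0%. DKO exceeded WT by 58.8 points (SE 11.5, limma adjusted p = 0.0423), and the 4 genotypes overlapped only where Tet2KO met Tet3KO and Tet3KO met DKO. In pro-B WT the tile was still at 25.7, 75 and 53.3%, so among the WT libraries the follicular ones were the low ones. Leaving out any 1 of the 6 libraries raised the adjusted p of this tile above the threshold (0.0523 to 0.12).

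A pair of called tiles lay in the same 7-tile stretch of chromosome 4 (135259801 to 135260700). At 135260401 to 135260500, follicular WT was at 48.8, 41.8 and 34.7% and DKO at 86.5, 83.6 and 89.5% (difference 44.7, SE 6.95, limma adjusted p = 0.00799), with Tet2KO at 63.4% ± 6.08 and Tet3KO at 73.2% ± 4.52 in between. At 135259801 to 135259900, the 3 WT libraries were at 0 and DKO at 30.8, 23.7 and 28.2% (difference 27.6, SE 3.01, adjusted p = 0.000219), and here both single knockouts stayed low, at 2.30% ± 3.98 and 0.667% ± 1.15. The tiles are 500 bp apart, and the single knockouts were raised at one and near 0 at the other. Both calls were kept without each library of the groups compared in turn.

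Of the remaining 4, a tile of chromosome 1 (184066301 to 184066400) rose from 46.3% ± 10.4 in WT to 90.9% ± 1.38 in DKO. There Tet3KO was at 52.3% ± 1.21 and Tet2KO at 60.0% ± 4.27, with all Tet2KO libraries above the WT libraries. Another on chromosome 1 (135959601 to 135959700) rose from 1.83% ± 1.28 to 44.7% ± 10.1, with Tet2KO at 10.9% ± 5.10 and Tet3KO at 24% ± 5.88 (limma adjusted p = 0.00815). The other 7 tiles of its stretch went from 0.666 to 6.07% on average, so the change was concentrated in this tile. Both tiles of chromosome 15 were near 0 in WT: 89041001 to 89041100 went from 1.04% ± 1.80 to 24.8% ± 11.1, and 83003201 to 83003300 from 0% in all 3 libraries to 23% ± 8.38. At both, Tet2KO was near WT (0.617 and 0.645%) and Tet3KO in between (13.1 and 11.3%). Left out one at a time, each library but WT library 14 ended the call at 184066301, and each but DKO library 23 ended both calls on chromosome 15 (adjusted p = 0.0551 to 0.151). A fit of the follicular DKO and WT libraries alone called 1 member in all, and none of the 8.

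**Figure D5:**
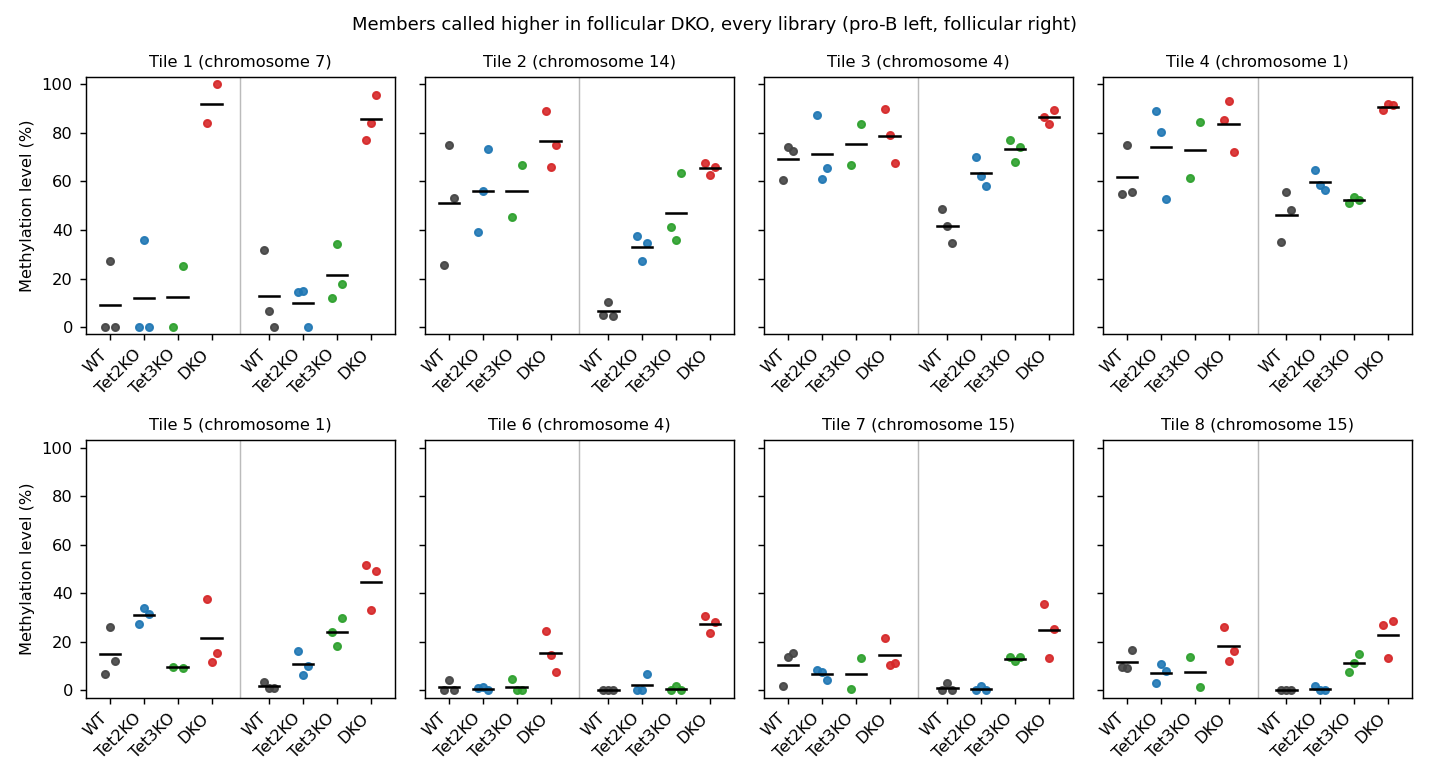
Methylation level (y axis, percent) of the 8 members called higher in follicular DKO than in WT, one point per library and lines for group means, pro-B groups left and follicular groups right; tiles are numbered by the size of their difference. Tile 1 is high only in DKO at both stages (85.8% in follicular DKO, 92.1% in pro-B DKO), and tile 2 rises from 6.60% in follicular WT through both single knockouts to 65.4% in DKO.

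Because neighbouring tiles share fragments and cells, whole runs of tiles were also fitted as units, a step added after the tile results were seen. Of 10169 member runs, 5 were called higher in follicular DKO (0.0492%, with 0.223% of all 80146 runs called), and 3 of them held more than a single tile. The 4-tile run on chromosome 14 (54853601 to 54854100) was at 36.3, 43.2 and 38.8% in follicular WT and 84.7, 73.5 and 81.5% in DKO, a difference of 40.4 points (SE 5.90, limma adjusted p = 0.00339). It remained called without each library in turn. A 3-tile run on chromosome 4 (43496301 to 43496600) was at 12.9, 3.23 and 6.25% in WT and 92.9, 73.5 and 78.4% in DKO (difference 74.1, SE 11.4, adjusted p = 0.01), with the single knockouts at 23% ± 2.73 and 31.6% ± 8.37. The 7-tile run on chromosome 4 (135259801 to 135260700) went from 20.7% ± 3.63 to 44.3% ± 4.92 (adjusted p = 0.0139). These last 2 runs lost their calls without WT library 14 or 15 (adjusted p = 0.0527 to 0.0917).

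The follicular single knockouts gave no called member. For Tet2KO, 0 members were higher and 0 lower by limma, while 0.00299% and 0.0% of all tested tiles were called. An unadjusted p under 0.05 was found for 996 members higher (1.95%, against 1.69% of all tested tiles) and 760 lower (1.49%, against 1.18%). For Tet3KO, the counts were 0 and 0, with 0.00996% and 0.0% of all tested tiles called. Here 1525 members higher (2.98%, against 2.74% of all tested tiles) and 748 lower (1.46%, against 1.22%) had an unadjusted p under 0.05. On the logit scale the counts were 0 as well. With sex and age strata in the fit, 9 members became higher in Tet3KO, and the share of all tested tiles was not counted there. Tet3KO and WT shared no sex and age stratum, so that comparison runs only through the DKO libraries. Whether either single knockout differed from the double knockout at single members was not tested.

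In pro-B cells 16 members were higher in DKO than in WT (0.187% of all tested tiles called) and 3 lower (0.0438%). The spread behind these p-values was shared over all 8 groups, although pro-B libraries of a group correlated less closely than follicular ones. The largest rise was on chromosome 4 (43496301 to 43496400), the first tile of the run above. It was at 0 and 33.3% in the 2 WT libraries with a value and at 100% in both DKO libraries with a value (difference 83.3, SE 15.8, limma adjusted p = 0.0466). Tet2KO, at 78.6, 82.8 and 90.5%, was raised as well. On chromosome 17 (35033501 to 35033600) WT was at 0, 16.8 and 36.7%, DKO at 83.8, 72.3 and 100% (difference 67.5, SE 8.62, adjusted p = 0.00203), and both single knockouts lay in between, Tet2KO at 53.8% ± 10.2 and Tet3KO at 75.1% ± 3.32. The other tile of that stretch was at 94.3% in WT and 95.2% in DKO, so the methylated neighbour did not move with it. The call on chromosome 4 was lost without WT library 1 or DKO library 10 or 11 (adjusted p = 0.18, 0.0892 and 0.089).

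The strongest fall was on chromosome 15 (34768001 to 34768100), within a 9-tile stretch whose other tiles stayed between 5.54 and 10% in the pro-B groups. The 2 pro-B WT libraries with a value were at 61.8 and 55.0%, and DKO was at 6.85, 0 and 0% (difference -56.1, SE 7.62, limma adjusted p = 0.0042). Every pro-B Tet2KO and Tet3KO library with a value was at 0, and follicular WT at 0, 9.38 and 8.89%. Pro-B WT was thus the only group that stood out at this tile. On chromosome 9 (43013501 to 43013600) the pattern was alike at a lower level, with pro-B WT at 25.9, 33.3 and 26.3% and DKO at 0, 6.45 and 14.6% (difference -21.5, SE 3.76, adjusted p = 0.0202). Without WT library 2 or DKO library 10 this difference shrank below 20 points (-19.1 and -18.0). On chromosome 13 (3221101 to 3221200) all WT libraries were at 100% and DKO at 58.2, 78.6 and 58.6% (adjusted p = 0.0401), and the call was lost without WT library 1 or DKO library 10 or 12.

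Pro-B Tet2KO had 6 members higher (0.0558% of all tested tiles called) and 3 lower (0.0129%). One of them lay on chromosome 7 (3110301 to 3110400), at 51.1 and 50% in the 2 WT libraries with a value and 100, 88.8 and 100% in Tet2KO (difference 45.7, SE 3.66, limma adjusted p = 0.000125). Its 2 neighbours were at 96.5% in both groups. All 6 higher members had a mean of 80% or more over the libraries, so at these sites WT was below an otherwise methylated level. The tiles of chromosome 15 and chromosome 9 that fell in DKO fell here too, by 58.4 and by 27.6 points (adjusted p = 0.00597 and 0.00608), with the same WT libraries on the other side of each comparison.

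Pro-B Tet3KO had 22 members higher (0.164% of all tested tiles called) and 29 lower (0.257%), but library 8 had a value at only 1 of them, so that nearly all rest on 2 Tet3KO libraries. The largest fall was on chromosome 11 (77276901 to 77277000), from 100% in both WT libraries with a value to 0% in both Tet3KO libraries (limma adjusted p = 0.000825). Tet2KO was at 94.7% ± 5.22 and DKO at 75% ± 24.1 there, and follicular Tet3KO at 74.2% ± 5.20, so the loss did not recur in the other libraries that lack TET3. The largest rise was on chromosome 5 (24277801 to 24277900), from 16.2 and 25.6% in WT to 97.5 and 100% in Tet3KO (difference 77.9, SE 12, adjusted p = 0.00734). Over tiles with a value in 23 libraries, and without library 8, the counts were 7 higher and 11 lower, with no share of all tiles counted.

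Between stages, follicular WT exceeded pro-B WT at 14 members (0.133% of all tested tiles called) and lay below it at 8 (0.0473%). The 2 adjoining tiles of chromosome 10 from 40021801 to 40022000 showed the cleanest gain. All pro-B WT libraries were at 0 and the follicular WT libraries at 56.1, 59.6 and 56.7% (difference 57.5, the higher limma adjusted p of the pair 0.000731). Follicular Tet2KO, at 56.3% ± 5.01, and DKO, at 55.4% ± 5.63, overlapped WT. The follicular Tet3KO libraries, at 67.5, 62.6 and 68.7% (mean 66.3% ± 3.25), all lay above WT, though no member was called in that comparison. The other 8 tiles of this 10-tile stretch stayed at 0.274% in follicular WT. In each follicular group, a partly methylated patch thus lay inside an otherwise unmethylated stretch. In pro-B DKO the libraries were at 21, 0.490 and 0%. The DKO stage difference was 48.2 points at this pair (higher adjusted p = 0.00346).

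A tile of chromosome 1 (31006401 to 31006500) moved likewise, from 0, 0 and 1.23% in pro-B WT to 57.7, 51.6 and 56.6% in follicular WT (limma adjusted p = 0.0468), though that call was lost when any 1 of the 6 libraries was left out. The largest fall with the stage was at the chromosome 15 tile described above (34768001 to 34768100), by 52.3 points (SE 7.62, limma adjusted p = 0.00755), where 2 pro-B WT libraries gave a value and the other tiles of the stretch were at 5.54% in pro-B WT and 9.16% in follicular WT. The next falls described lay in methylated stretches. On chromosome 13 (3109801 to 3109900) pro-B WT was at 88.9, 86.5 and 96.1% and follicular WT at 54.8, 50 and 57.7% (difference -36.4, SE 3.06, adjusted p = 3.11e-05). Its 3 neighbours stayed at 90.8 and 93.1%. The follicular level was 56.2% ± 0.370 in Tet2KO, 54.3% ± 1.52 in Tet3KO and 65.3% ± 2.91 in DKO, so the DKO libraries lay above the WT libraries by less than the 20 points required. On chromosome 12 (5062401 to 5062500), in the fifth longest stretch, pro-B WT was at 90.1% ± 3.01 and follicular WT at 53.8% ± 8.83 (adjusted p = 0.0042), with follicular DKO at 78.9% ± 6.52.

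In DKO cells 11 members were higher in follicular than in pro-B libraries (0.139% of all tested tiles called) and 7 lower (0.0294%). A pair of tiles of the same chromosome 12 stretch were among the largest falls: 5066101 to 5066200 went from 76.0% ± 7.90 in pro-B DKO to 37.9% ± 5.99 in follicular DKO, and 5065301 to 5065400 from 89.1% ± 10.7 to 51.1% ± 9.61 (limma adjusted p = 0.0441 and 0.0422). A tile of chromosome 11 (7827001 to 7827100) went from 97.1% ± 2.56 to 59.6% ± 7.59 (adjusted p = 0.0107), and its WT levels were 95.6% ± 2.59 and 67.9% ± 5.19. As runs, 5 tiles of chromosome 4 (44677001 to 44677500) rose from 19.9% ± 0.803 to 47.5% ± 3.25 in DKO (adjusted p = 0.00861) and stood at 16.8% ± 3.02 and 37.4% ± 1.94 in WT. The run remained called without each library in turn. Member runs called higher were 5 in this comparison, with 0.186% of all runs called, and 6 in WT, with 0.228%.

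The double-knockout difference itself was compared between stages in the same fit. At 1 member it was higher in follicular than in pro-B cells (0.0134% of all tested tiles called) and at 3 lower (0.0154%). The first was the chromosome 15 tile at 34768001, where DKO minus WT was -56.1 points in pro-B cells and follicular WT and DKO stood at 6.09% ± 5.28 and 20.9% ± 16.6. The tile of chromosome 7 at 3110301 was the largest of the 3, with pro-B WT at 50.5% ± 0.752 and the other 7 groups at 87.5 to 100%. Both turned on the 2 pro-B WT libraries that gave them a value. At the remaining members no difference between the stages passed the test, which does not show that the knockout acted alike at both.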

How the data were processed

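The RRBS table holds methylation fractions of 100-bp tiles on mm9, deposited by the authors as a single table with 24 library columns. Per the submitters' processing notes, Trim Galore and methylKit were among the tools and mm9 and hg19 among the builds, with no parameters. Coverage minimum, conversion rate and read counts per tile are not given in the sources used here. Fractions were multiplied to percent, and no library was rescaled. Levels were fitted with limma 3.58.1 in R 4.3.3, with 8 groups as a single factor, a trended prior and Benjamini-Hochberg adjustment over 200813 tiles. The fit was also run on simulated levels whose spread was borrowed from these tiles. A library was dropped at tiles it gave no value for, and nothing was imputed. Sex chromosomes were not used because 1 genotype was all female.

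The members and the lists were chosen with earlier results of these data known. Named regions are called members whose libraries do not overlap between the groups, joined within 500 bp and ranked by the number of called tiles and then by difference, up to 8 in follicular DKO and up to 3 elsewhere. The planned rule allowed up to 8 everywhere. Longest stretches and those of extreme or intermediate level were named by length. Libraries of a group were compared over intermediate members and shared an identical value at 0.102 to 3.23% of them, so none was a copy. The WT libraries of a stage all differ in sex or age, so they come from different mice. Each knockout group holds libraries alike in sex and age, and whether those are from different mice is not labelled. The p-values measure the spread between libraries. The fit took a single spread per tile from all 8 groups. Over intermediate members, pairs of pro-B libraries of a group, without library 8, had Pearson correlations of 0.484 to 0.677. Follicular pairs had 0.687 to 0.821. Pro-B p-values may therefore be too small. No library number is shared between groups. Alternatives were the logit scale, fits of the compared groups alone, centred libraries, a 10-point minimum, sex and age strata, other density limits, stretches counted once, complete tiles and each library left out. After the data were seen, tiles complete in 23 libraries, alone and with strata, and runs of tiles were added. Promoters and genes were not used, as no annotation of the table's build was at hand.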

Additional observations from a re-analysis of the deposited data

Results flagged for a closer look

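At 4 members the double-knockout difference itself differed between the stages by the limma interaction term, with each adjusted p from the fit over all tested tiles. On chromosome 15 (34768001 to 34768100) the difference was 70.9 points more positive in follicular than in pro-B cells (SE 10.2, adjusted p = 0.0152). Pro-B WT was at 58.4% ± 4.82 (n = 2) and pro-B DKO at 2.28% ± 3.95, while follicular WT and DKO were at 6.09 and 20.9%. On chromosome 7 (3110301 to 3110400) the value was -45.9 points (SE 5.17, adjusted p = 0.00262), with pro-B WT at 50.5% ± 0.752 (n = 2), pro-B DKO at 99.5% ± 0.673 (n = 2), and follicular WT and DKO at 90.8 and 93.9%. On chromosome 14 (64226201 to 64226300) it was -30.3 points (SE 3.83, adjusted p = 0.00495), where pro-B DKO, at 30.1 and 39.6% in the 2 libraries with a value, was the only group above 20%. On chromosome 9 (79750301 to 79750400) it was -22.6 points (SE 2.48, adjusted p = 0.00213), where pro-B WT, at 73.1 and 81.8%, was the only group whose mean was under 95% and the others reached up to 100%. Each of the 4 rests on a pro-B group with 2 measured libraries, and none was called when the groups compared were fitted alone. Without pro-B WT library 1 the chromosome 9 value was -18.2 points, under the 20 required.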

How the results depend on the processing

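Counts of called members depended on the processing, and the mean differences between follicular genotypes kept their sign under every library left out. The table gives no coverage, so precision rests on 2 or 3 libraries a group, and values near 0 cannot be separated from incomplete conversion. Library numbers are not shared between groups, so the labels give no pairing by number, and the block used sex and age strata. Tet3KO and WT shared no stratum, so with the block they are compared only through the DKO libraries. Sexes and ages match between the stages within each genotype, and whether those libraries share mice is not stated. The cause of the changes below was not tested, except that fits of fewer groups or of complete tiles hold fewer samples or tiles. The share of all tested tiles called was not counted under these settings. The counts below therefore do not show whether members changed apart from the other tiles.

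With only the compared groups fitted, counts were follicular DKO 1 higher, pro-B DKO 0 higher and 0 lower, pro-B Tet2KO 0 higher and 0 lower, pro-B Tet3KO 2 higher and 2 lower, WT stage 3 higher and 2 lower, DKO stage 0 higher and 0 lower, DKO stage contrast 0 higher and 0 lower. With each library centred, counts were follicular DKO 4 higher, pro-B Tet2KO 3 higher, WT stage 3 higher and 5 lower, DKO stage 1 higher and 3 lower, DKO stage contrast 1 lower. With a 10-point minimum, counts were follicular DKO 13 higher, follicular Tet2KO 1 higher, follicular Tet3KO 2 higher, pro-B Tet3KO 46 higher, WT stage 22 higher, DKO stage 27 higher and 13 lower, DKO stage contrast 2 higher. On the logit scale, counts were pro-B DKO 26 higher and 5 lower, WT stage 23 higher, DKO stage 6 higher and 4 lower, DKO stage contrast 1 lower. With sex and age strata as a replicate block, counts were follicular Tet3KO 9 higher, pro-B DKO 8 higher, pro-B Tet2KO 2 higher, pro-B Tet3KO 8 higher and 4 lower, WT stage 5 higher and 2 lower, DKO stage 3 higher and 4 lower, DKO stage contrast 0 higher. Over tiles with a value in all 24 libraries, counts were follicular DKO 1 higher, pro-B DKO 0 higher and 0 lower, pro-B Tet2KO 0 higher and 0 lower, pro-B Tet3KO 0 higher and 0 lower, WT stage 0 higher and 1 lower, DKO stage 0 higher and 1 lower, DKO stage contrast 0 higher and 0 lower. Over tiles complete in the 23 libraries other than library 8 (added), counts were pro-B DKO 4 higher and 1 lower, pro-B Tet2KO 0 higher and 1 lower, pro-B Tet3KO 7 higher and 11 lower, DKO stage contrast 0 higher and 1 lower.

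Leaving out each library in turn gave these ranges of counts: pro-B DKO higher 16 to 74, pro-B DKO lower 3 to 29, pro-B Tet2KO higher 6 to 38, pro-B Tet2KO lower 3 to 25, pro-B Tet3KO higher 22 to 219, pro-B Tet3KO lower 30 to 167, WT stage higher 8 to 40, WT stage lower 4 to 28, DKO stage contrast higher 1 to 18, DKO stage contrast lower 3 to 21, follicular DKO higher 4 to 15, follicular DKO lower 0 to 2, follicular Tet2KO higher 0 to 3, follicular Tet2KO lower 0 to 2, follicular Tet3KO higher 0 to 5, follicular Tet3KO lower 0 to 2, DKO stage higher 5 to 58, DKO stage lower 6 to 30. Where such a fit leaves a group with 1 value at a tile, its spread is borrowed from the remaining groups. This holds at most tiles for pro-B Tet3KO without library 7 (219 higher, 167 lower) or library 9, since library 8 covers 16.1% of members.

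Mean differences over members (points) changed as follows. Centring gave -0.771 for follicular DKO, -0.227 for follicular Tet2KO, -0.467 for follicular Tet3KO, -0.449 for pro-B DKO, -1.46 for pro-B Tet2KO, 5.1 for pro-B Tet3KO, -2.04 for WT stage, -2.36 for DKO stage. The centred pro-B Tet3KO value takes in library 8. That library's mean over the other tested tiles was 18.64%, against 45.55 and 46.18% in libraries 7 and 9. The sex and age block gave -0.214 for follicular DKO, -0.00801 for follicular Tet2KO, 0.0134 for follicular Tet3KO, -0.466 for pro-B DKO. A count of 10 gave 0.389 for follicular DKO. A count of 5 or more gave 0.898 for follicular DKO, 0.342 for follicular Tet2KO, 0.647 for follicular Tet3KO, 1.09 for pro-B Tet2KO, -2.96 for pro-B Tet3KO, 1.6 for WT stage, 2.02 for DKO stage. Each stretch counted once gave 0.624 for follicular DKO, -3.15 for pro-B Tet3KO, 1.49 for WT stage. Members complete in 24 libraries gave 0.337 for follicular DKO, 0.136 for follicular Tet2KO, 0.252 for follicular Tet3KO, 0.206 for pro-B Tet3KO. Leaving out each library in turn moved the mean differences within 0.486 to 0.574 for follicular DKO, 0.169 to 0.248 for follicular Tet2KO, 0.336 to 0.505 for follicular Tet3KO, -0.144 to 0.85 for pro-B DKO, 0.0935 to 0.766 for pro-B Tet2KO, -1.76 to 0.323 for pro-B Tet3KO, 0.374 to 1.05 for WT stage, 0.472 to 1.47 for DKO stage. The pro-B DKO difference was reversed without pro-B WT library 1 (-0.126) or pro-B DKO library 10 (-0.144), and the pro-B Tet3KO difference without library 8 (0.323). Over members complete in 23 libraries and without library 8, 7 of the 8 mean differences kept their direction, and pro-B Tet3KO was at 0.0775. With the sex and age replicate block added there, the values were 0.341 for follicular DKO, 0.108 for follicular Tet2KO and 0.0835 for follicular Tet3KO, while pro-B Tet3KO was at -0.129, so its direction there turned with the block.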
